A study of Mus musculus with 4 samples.

Results

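The 4 Hox clusters of the mouse genome, each with its near flanks, were described in a table of H3K27ac contacts of embryonic stem cells. The table was made by HiChIP, in which DNA ends ligated together in fixed nuclei are enriched with an antibody, here against H3K27ac, and sequenced as read pairs. Every pair of anchors (the genomic intervals between which read pairs were counted) was taken if at least 1 of its anchors overlapped, on GRCm38, 52.1 to 52.3 Mb of chromosome 6 (HoxA), 96.15 to 96.4 Mb of chromosome 11 (HoxB), 102.85 to 103.06 Mb of chromosome 15 (HoxC) or 74.64 to 74.79 Mb of chromosome 2 (HoxD). This gave 2641 of the 1513030 pairs in the table, and 40 of the 56562 anchors lay in the 4 intervals. HoxA had 709 pairs and 12 anchors, HoxB 924 and 9, HoxC 853 and 15, and HoxD 155 and 4. The Hox pairs held 11786 read-pair counts, which was 0.103% of all counts. The rule used positions only.

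Of 2 inbred strains, C57BL/6J is called B6 here and DBA/2J is called D2. Each strain was represented by 2 embryonic stem cell lines, B6 4-1 and B6 5-1 against D2 2-9 and D2 5-5, and each line gave 1 library, numbered here as replicates 1 and 2 of its strain. All lines were cultured in serum medium with LIF and the inhibitors PD0325901 (MEK) and CHIR99021 (GSK3), carried no stated edit or treatment, and were fixed with 1% formaldehyde before DpnII digestion. A difference between strains is therefore a difference between 2 pairs of lines. Positions and printed letters are those of the same reference build for both strains. Sequence differences between the strains, and their part in the counts, were not tested.

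Hox genes encode homeodomain transcription factors that pattern the body axis, and within a cluster their order along the chromosome follows the order in which they are used along the body and in time. In pluripotent cells the clusters are largely silent and covered by Polycomb-deposited H3K27me3, a mark that cannot sit on the same lysine as H3K27ac. H3K27ac marks active promoters and enhancers, so a HiChIP count depends both on contact between 2 anchors and on the mark at one of them.

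The B6 libraries held 2908329 and 2800847 counts and the D2 libraries 2767882 and 2944258 (replicates 1 and 2 of each). D2 replicate 1 stood apart from the other libraries. It had counts in 715798 pairs against 803268 to 833100 in the others, a library name marked 10cyc where the others read 8cyc, and a summed level of 2831 CPM (counts scaled to a library total of 1000000) at anchors over the start sites of 10 embryonic stem cell marker genes, against 1767 to 1950 CPM. Of those markers, 7 of 10 had an anchor (none for Klf2, Esrrb and Tfcp2l1). Of 8 fibroblast markers, a check for feeder cells, 2 had an anchor, with a sum of 4.70 to 10.3 CPM, and Col1a1, Col1a2 and Col3a1 had none. Anchors were found for 4 of 5 primitive endoderm markers (77 to 94.9 CPM), 5 of 5 mesoderm markers (224 to 286 CPM) and 5 of 5 neural markers (174 to 200 CPM). The mark and the line of D2 replicate 1 cannot be told apart, and their part in the results was not tested; values without each D2 library are given where they change a call.

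The edges of the busiest anchors of HoxB and HoxC show how anchors are bounded. The sequences below are 30 bases of the GRCm38 plus strand around each edge, with the DpnII site in capitals. All 56562 anchors of the table began and ended at such a site, so an anchor is a run of restriction fragments and not a peak summit.
Gm53 anchor, lower edge, chr11:96247067-96247096: gcctagcacatatGATCtgagtaaaattta
Gm53 anchor, upper edge, chr11:96257749-96257778: gctggagaatgttGATCttggtctggcagt
Hoxc12/Hoxc13 anchor, lower edge, chr15:102918827-102918856: cttcctatacctaGATCcatccttctcaca
Hoxc12/Hoxc13 anchor, upper edge, chr15:102944812-102944841: aggggtggacagtGATCtggagagctaggt

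Those promoters of the Hox list that had a sequence to read were richer in CpG dinucleotides than promoters at large, by their median, both with and without an anchor. The 4 promoters below (250 bases before to 50 after the start, RefSeq on GRCm38.p6, on the gene's strand, CG in capitals) were chosen to show this: Hoxa5, Hoxc4 and Hoxd3 lie under anchors and Hoxd13 does not. They hold 29, 9, 20 and 37 CpGs.
Hoxa5, chr6:52204538-52204837, minus strand: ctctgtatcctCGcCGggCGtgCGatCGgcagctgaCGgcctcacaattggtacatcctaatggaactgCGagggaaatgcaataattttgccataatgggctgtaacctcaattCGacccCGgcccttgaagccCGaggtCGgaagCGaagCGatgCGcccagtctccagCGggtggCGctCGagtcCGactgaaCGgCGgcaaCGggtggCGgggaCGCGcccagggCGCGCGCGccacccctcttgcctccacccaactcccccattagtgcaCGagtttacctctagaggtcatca
Hoxc4, chr15:103034145-103034444, plus strand: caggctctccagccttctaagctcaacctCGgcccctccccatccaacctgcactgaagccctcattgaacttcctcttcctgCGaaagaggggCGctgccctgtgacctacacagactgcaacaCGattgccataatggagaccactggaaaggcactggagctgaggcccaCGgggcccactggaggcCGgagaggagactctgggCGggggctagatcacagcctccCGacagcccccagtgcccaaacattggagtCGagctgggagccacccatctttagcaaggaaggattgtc
Hoxd3, chr2:74711743-74712042, plus strand: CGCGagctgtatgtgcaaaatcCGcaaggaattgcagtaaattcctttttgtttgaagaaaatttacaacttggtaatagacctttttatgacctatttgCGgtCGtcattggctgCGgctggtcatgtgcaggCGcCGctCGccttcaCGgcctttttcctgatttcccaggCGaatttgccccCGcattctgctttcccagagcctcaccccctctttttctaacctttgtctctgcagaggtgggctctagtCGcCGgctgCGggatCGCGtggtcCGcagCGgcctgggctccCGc
Hoxd13, chr2:74667975-74668274, plus strand: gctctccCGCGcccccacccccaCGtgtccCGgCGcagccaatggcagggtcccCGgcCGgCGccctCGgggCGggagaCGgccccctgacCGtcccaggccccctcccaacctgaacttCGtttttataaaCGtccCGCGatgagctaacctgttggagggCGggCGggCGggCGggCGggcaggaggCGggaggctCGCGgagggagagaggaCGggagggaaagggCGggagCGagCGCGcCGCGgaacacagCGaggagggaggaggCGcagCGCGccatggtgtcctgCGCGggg

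The RefSeq table held 27 promoters of 25 genes of the Hox list (the Hox genes with Evx1, Evx2 and non-coding genes of the clusters). Of the 18 listed genes with an anchor over a start, 7 had a promoter in the table overlapping an anchor. These were 5 of 8 in HoxA, 0 of 3 in HoxB, 1 of 6 in HoxC and 1 of 1 in HoxD. The values with an anchor therefore leave out Hoxb7, Hoxb9, Hoxb13, Hoxc12 and Hoxc13, among others. They take in Hoxa7, whose promoter at chr6:52218524-52218823 overlaps only the edge of an anchor ending at 52218545. The 8 promoters that overlapped an anchor had a median of 12 CpGs (range 9 to 29), and the 19 that did not had a median of 15 (range 4 to 45). The median over all 32851 promoters of the table was 7. At least 20 CpGs were found in 37.5% of the Hox promoters with an anchor, 42.1% of those without and 26.5% of all promoters. The Hox anchors themselves had a median of 23.9 CpGs per kb against 12.5 over all anchors, and a median GC content of 48.4% against 45.2%. The most CpG-dense were the Hoxa4 anchor (70.4 per kb) and the Hoxa10 anchor at chr6:52233475-52235650 (70.3 per kb), and the sparsest was the HoxC anchor at chr15:102865159-102867808 (4.15 per kb).

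Anchors were searched on both strands for a core of the motif of CTCF, the insulator protein whose bound sites often lie at loop ends: CCA, any 2 bases, AG, any 2 bases, GGC. Over their whole length, 13 of the 40 Hox anchors held 14 matches, of which 12 read on the minus strand and 2 on the plus strand. Neither this count, which depends on anchor width, nor the strand split was taken over all anchors. In the central 2000 bp, 7 of 40 anchors (17.5%) held a match against 15.4% of all anchors. A match describes the letters and is no evidence of binding. All 5 matches in HoxA, all 4 in HoxC and the 1 in HoxD read on the minus strand, and HoxB had 2 on each strand. The coding Hoxa genes lie on the minus strand and those of the other clusters on the plus strand. The 5 matches in HoxA anchors are printed as the largest set of 1 cluster; the match is in capitals, the coordinates are those of the match, and the letters are those of its strand.
Halr1 anchor, chr6:52107598-52107609: tcaagcaggCCAGAAGAGGGCgatgggtcc
Halr1 anchor, chr6:52108042-52108053: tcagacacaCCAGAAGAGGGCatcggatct
Hoxa3 intron, chr6:52211282-52211293: aaggcagctCCAGGAGAGGGCtggtaactg
Hoxa9 exon, chr6:52221809-52221820: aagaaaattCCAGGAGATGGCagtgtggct
Hoxa10, chr6:52240541-52240552: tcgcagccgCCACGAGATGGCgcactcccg

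Anchors lay unevenly over the Hox genes. An anchor covered an annotated start site (GENCODE M21, basic set) of 18 of the 44 genes in the Hox list, or 40.9%, whereas 65.4% of all 20780 protein-coding genes had one. By cluster these were 8 of 14 in HoxA (among them Hoxa4, Hoxa5, Hoxa7, Hoxa10 and the homeobox gene Evx1), 3 of 10 in HoxB (Hoxb7, Hoxb9 and Hoxb13), 6 of 10 in HoxC (Hoxc4, Hoxc5, Hoxc10, Hoxc12, Hoxc13 and the long non-coding RNA Hotair) and 1 of 10 in HoxD (Hoxd3). The anchor over Evx1, chr6:52311747-52317266, lies outside the HoxA interval, and the list holds non-coding genes, unlike the background. Counted by start sites, 23 of 63 were covered, and in HoxD 1 of 16. At Hoxd3 and Hoxc4 only 1 of the annotated starts was covered: the most upstream start of Hoxd3 and the downstream start of Hoxc4. Of 38 annotated genes on the flank list, 24 (63.2%) had an anchor over a start site; 1 of the 38, Tespa1, lies on chromosome 10 and flanks no cluster.

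Anchors covered 26.3% of the 200 kb of HoxA, 18.8% of the 250 kb of HoxB, 35.4% of the 210 kb of HoxC and 9.72% of the 150 kb of HoxD. The largest stretch without an anchor in HoxB was 84.5 kb and held the starts of Hoxb1 to Hoxb6. In HoxA it was 46.5 kb, at the posterior end, with Hoxa11, Hoxa13 and the non-coding RNA Hottip. In HoxD it was 37.1 kb with Hoxd8 to Hoxd12, and in HoxC 31.9 kb with Hoxc8 and Hoxc9. No single end of the gene order was free of anchors in all clusters: HoxB lacked them over its anterior genes and HoxA over its most posterior ones.

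**Figure D1:**
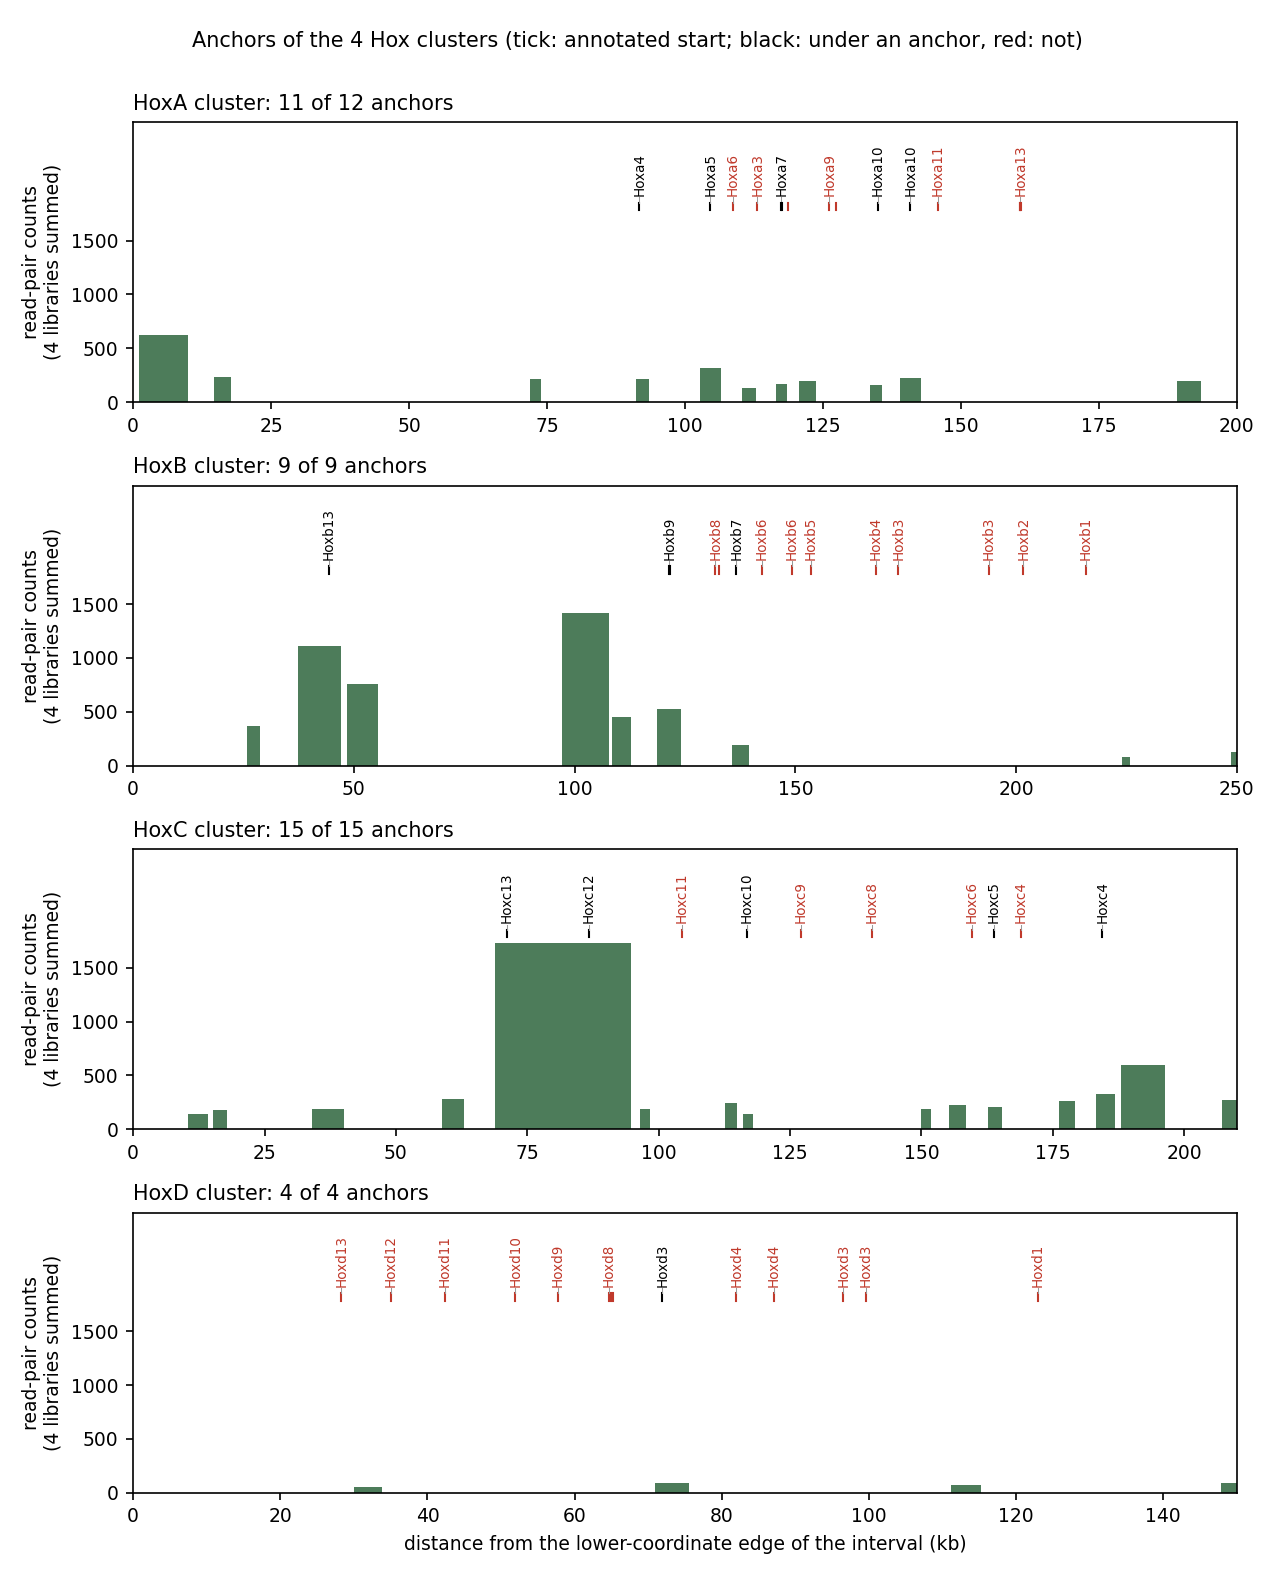
Read-pair counts of 39 of the 40 Hox anchors (1 HoxA anchor and the starts under it are not drawn), summed over the 4 libraries (bar height; bar width is the anchor), against distance in kb from the lower-coordinate edge of each interval, with ticks for annotated start sites (black under an anchor, red not). The Hoxc12/Hoxc13 anchor (1725 counts) and the Gm53 anchor of HoxB (1418 counts) are the highest, and the 4 HoxD anchors hold 50 to 93 counts.

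In HoxA, the anchor chr6:52100982-52109961 over the start of the non-coding Halr1, outside the Hox genes, had 127 and 143 counts in B6 and 208 and 148 in D2. Both D2 libraries had more counts than both B6 libraries, but the strains overlapped once counts were scaled to library size. A further 10 HoxA anchors had 129 to 321 counts in all, the Hoxa5 anchor being the highest of these with 76 and 86 counts in B6 and 84 and 75 in D2.

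In HoxB the busiest anchor was not over a coding gene. It was chr11:96247080-96257762 over a start of the non-coding Gm53, 13695 bp from the start of Hoxb9, with 340 and 313 counts in B6 and 398 and 367 in D2, or 32.8% of all HoxB counts. The Hoxb13 anchor at chr11:96187317-96197003 had 319 and 252 counts in B6 and 268 and 273 in D2. Hoxb13 is the most posterior gene of the cluster and lies apart from the others. The Gm53 anchor was higher in D2 without overlap and the Hoxb13 anchor overlapped between strains. The Hoxb9 anchor had 522 counts, the Hoxb7 anchor 192, and the 2 anchors on the far side of Hoxb1 had 83 and 123.

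In HoxC a single wide anchor dominated. It was chr15:102918840-102944825, 25985 bp long over Hoxc12 and Hoxc13, the most posterior HoxC genes. It had 447 and 449 counts in B6 and 403 and 426 in D2, 41.9% of all HoxC counts. Both B6 libraries were above both D2 libraries, also when scaled to library size. Per kb it had 66.4 counts, close to the HoxC median of 72.4 (range 32.0 to 107). The part of its width in its total was not tested. The next was chr15:103038020-103046277, 3625 bp from a start of Hoxc4, with 174 and 159 counts in B6 and 112 and 153 in D2. The Hotair anchor had 191 counts and the Hoxc10 anchor 144.

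In HoxD all 4 anchors were weak. The Hoxd3 anchor at chr2:74710868-74715561 had 18 and 25 counts in B6 and 29 and 20 in D2. The anchor at chr2:74787881-74793229, past the Hoxd1 end, had 17 and 18 counts in B6 and 26 and 32 in D2. An anchor over an exon of Hoxd13 had 50 counts in all and one 7735 bp from Hoxd1 had 69. Per kb, HoxD anchors had 13.4 to 19.6 counts, and no anchor of the other 3 clusters was under 32.0.

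Against all anchors, the median anchor was near the middle in HoxA and HoxC, higher in HoxB and lower in HoxD. It lay above 53.4% of all anchors by total in HoxA, 76.2% in HoxB, 54.5% in HoxC and 25.7% in HoxD. The median anchor total was 215 in HoxA, 456 in HoxB, 222 in HoxC and 80.5 in HoxD, against 194 over all 56562 anchors. Counts per kb had medians of 71.4, 105, 72.4 and 17.3, against 47.6. An anchor joined a median of 59.5 others in HoxA, 101 in HoxB, 60 in HoxC and 40.5 in HoxD, against 49. The Hoxc12/Hoxc13 anchor had more counts than 95.8% of all anchors and the Gm53 anchor more than 94.3%; the lowest HoxD anchor had more than 17.5%. The 4 clusters are fixed intervals and not samples, so these comparisons carry no test.

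The question of the design is whether contacts differ between the strains. No cluster as a whole was called between strains. HoxA had 688 and 774 counts in B6 and 783 and 800 in D2. Scaled to each library's total, the B6 mean was 256 ± 28.1 CPM and the D2 mean 277 ± 7.90 CPM (SD, n = 2 each). The D2 libraries were 282.9 and 271.7 CPM and the second B6 library 276.3 CPM, so the strains overlapped on this scale.

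HoxB had 1143 and 1006 counts in B6 and 1051 and 1127 in D2, or 376 ± 23.9 and 381 ± 2.17 CPM (SD, n = 2 each). HoxC had 1058 and 1099 counts in B6 and 888 and 1076 in D2, or 378 ± 20.2 and 343 ± 31.6 CPM. HoxD had 65 and 73 counts in B6 and 83 and 72 in D2, or 24.2 ± 2.63 and 27.2 ± 3.91 CPM. The strains overlapped in each of these 3 clusters on this scale, and HoxD, at 293 counts in all, carried far fewer counts than the 3045 to 4327 of the others.

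The fitted log2 fold changes of D2 over B6 were 0.14 for HoxA (95% interval -0.07 to 0.35), 0.04 for HoxB (-0.17 to 0.25), -0.12 for HoxC (-0.32 to 0.09) and 0.19 for HoxD (-0.22 to 0.61). With 1 library left out at a time they ran from 0.064 to 0.23, -0.044 to 0.14, -0.18 to -0.045 and 0.020 to 0.37, so their size depended on which lines were in the fit. Their adjusted p-values were 0.407, 0.837, 0.489 and 0.583 (edgeR's quasi-likelihood test over 9205 features, the 4 clusters and windows of 200 kb along the autosomes, with Benjamini-Hochberg adjustment). At an adjusted p under 0.05, 0 of the 4 clusters were called, where 18% of all these features were, 6.71% higher and 11.3% lower in D2. At an unadjusted p under 0.05 there were also 0 clusters, against 30.1% of all features. In the scaling of the fit (TMM, a trimmed mean of log ratios), the strains no longer overlapped in 2 of the 4 clusters, against 57.2% of all features (26.8% higher and 30.4% lower in D2). HoxA was then higher in D2, at 143 and 159 against 172 and 161 scaled counts, and HoxC lower, at 220 and 226 against 195 and 216. The intervals allow a fold change of D2 over B6 between 0.951 and 1.27 in HoxA, 0.890 and 1.19 in HoxB, 0.799 and 1.06 in HoxC, and 0.856 and 1.52 in HoxD.

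**Figure D2:**
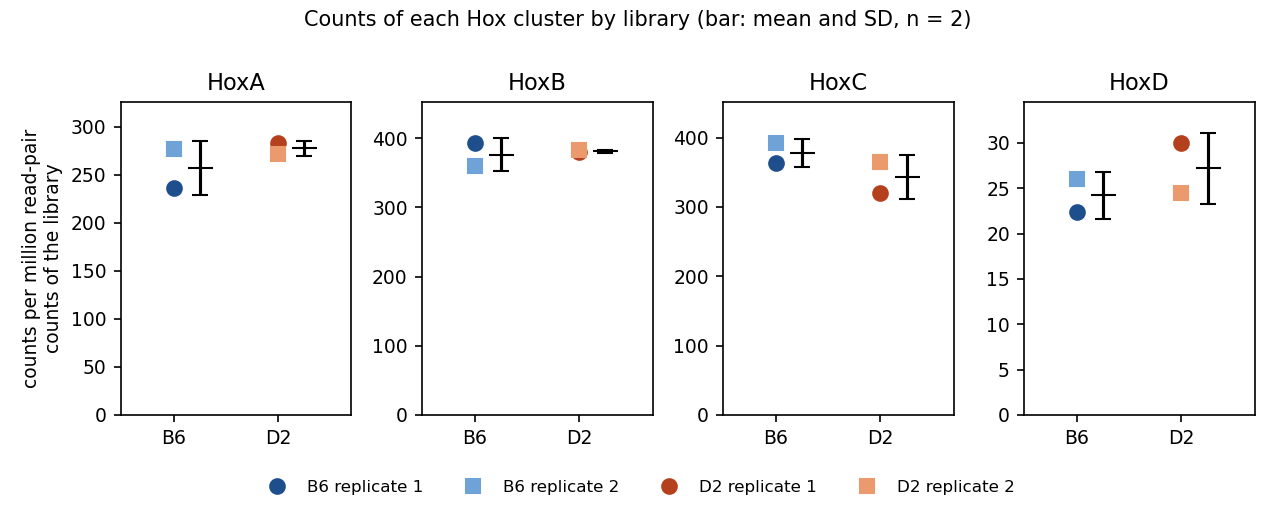
Counts of each Hox cluster in CPM (y axis from 0) for the 4 libraries (points) with the mean and SD of each strain (bars, n = 2). The strains overlap in each cluster on this scale, in HoxC by a small margin, at 363.8 CPM in B6 replicate 1 and 365.5 CPM in D2 replicate 2.

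Of the 40 Hox anchors, all of which reached the minimum of 20 counts, 0 were called between strains, where 9.75% of all tested anchors were, 2.67% higher and 7.08% lower in D2 (edgeR's quasi-likelihood test, Benjamini-Hochberg adjustment). At an unadjusted p under 0.05 there were 3, against 21.9% of all anchors, and DESeq2 called 0, with 0 at an unadjusted p under 0.05. The libraries of the strains did not overlap at 14 of the 40 (9 higher in D2 and 5 lower), against 50.6% of all tested anchors (24.2% higher and 26.4% lower). The median log2 fold change was 0.10 in HoxA, 0.04 in HoxB, -0.10 in HoxC and 0.15 in HoxD, against 0.01 over all tested anchors. Of the anchors without overlap, 5 of the 6 in HoxA and 3 of the 3 in HoxB were higher in D2, and 4 of the 4 in HoxC were lower.

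The 3 anchors with an unadjusted p under 0.05 were all higher in D2. The Halr1 anchor had a log2 fold change of 0.45 (95% interval 0.08 to 0.81, adjusted p = 0.115 by edgeR with Benjamini-Hochberg adjustment). The anchor at chr6:52171911-52173968, over a start of the non-coding Gm15050 and an exon of Hoxa3, had 46 and 45 counts in B6 and 60 and 64 in D2, a log2 fold change of 0.48 and an adjusted p of 0.183 in the same fit. The HoxD anchor past the Hoxd1 end had a log2 fold change of 0.76 (0.10 to 1.43, adjusted p = 0.152 in edgeR's fit). The Halr1 difference rested on D2 replicate 1: without D2 replicate 1 it was 0.07, and without D2 replicate 2 it was 0.76 with an adjusted p of 0.000231. The Gm53 anchor was likewise called without D2 replicate 2 (0.43, adjusted p = 0.0302 by edgeR) and stood at 0.10 without D2 replicate 1, against 0.27 (adjusted p = 0.341) with all libraries.

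**Figure D3:**
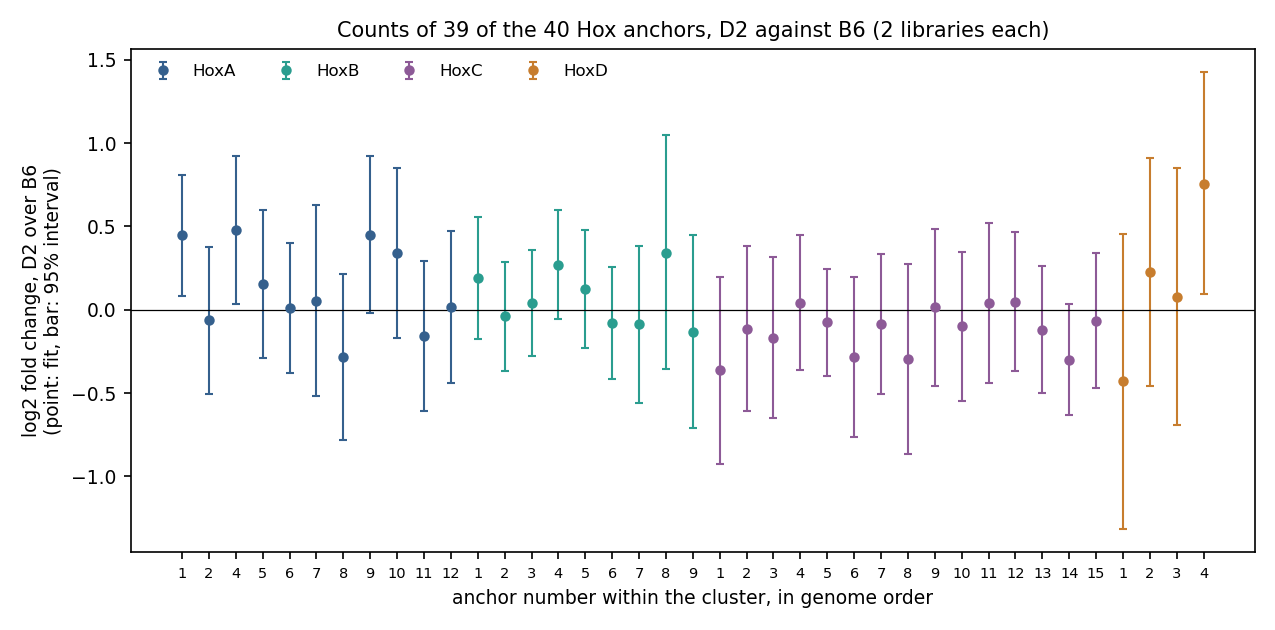
Log2 fold change of D2 over B6 (point) with its 95% interval (bar) for 39 of the 40 Hox anchors (1 HoxA anchor is not drawn) in genome order within each cluster. Fitted values run from -0.43 to 0.76, and the intervals of 3 anchors exclude 0: HoxA anchors 1 and 4 and HoxD anchor 4.

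Single pairs of anchors held few counts. Of the 2641 Hox pairs, 41.9% had 1 count in the 4 libraries together, against 38.7% of all pairs, and 95 (3.6%) reached the 20 counts needed for the test, against 7.14%. These were 22 in HoxA, 29 in HoxB, 44 in HoxC and 0 in HoxD. Of the 95, 0 were called, where 1.45% of all tested pairs were, 0.492% higher and 0.957% lower in D2 (edgeR's quasi-likelihood test, Benjamini-Hochberg adjustment). At an unadjusted p under 0.05 there were 6 (1 higher in D2 and 5 lower), against 11.7% of all tested pairs, and DESeq2 called 0 and had 1 at an unadjusted p under 0.05. In scaled counts, 38 of the 95 pairs had no overlap of the strains (18 higher in D2 and 20 lower), against 41.2% of all tested pairs (19.6% higher and 21.6% lower).

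The 5 HoxC pairs with an unadjusted p under 0.05 all ended at the Hoxc12/Hoxc13 anchor, so they share its counts. The pair with Atp5g2, which encodes a subunit c form of the mitochondrial ATP synthase, had 11 and 11 counts in B6 and 34 and 18 in D2. For that pair the log2 fold change was 1.17 (SE 0.39, 95% interval 0.42 to 1.93, adjusted p = 0.101 by edgeR); without D2 replicate 2 it was 1.59 with an adjusted p of 0.0150, and without D2 replicate 1 it was 0.60. The pairs lower in D2 joined the same anchor to Itga5 (18 and 14 against 10 and 7 counts), to an anchor 23146 bp from Calcoco1 (17 and 16 against 9 and 9), to Hoxc10 (10 and 8 against 5 and 2) and to Aaas (6 and 9 against 2 and 4). Their log2 fold changes lay between -1.40 and -0.93 and none had an adjusted p under 0.334 in edgeR's fit. Itga5 encodes an integrin subunit that binds fibronectin.

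Tested pairs of the Halr1 anchor and of the Hoxc12/Hoxc13 anchor leaned in different directions without passing the test. All 6 tested pairs of the Halr1 anchor had a fold change above 0, with a median log2 of 0.38. The log2 fold change of the Halr1 anchor itself was 0.07 without D2 replicate 1. Of 11 tested pairs of the busier Gm53 anchor, 9 were above 0 and 2 below. Of 39 tested pairs of the Hoxc12/Hoxc13 anchor, 25 were below 0 and the median was -0.19. Pairs of 1 anchor share its counts and are no replicates. By cluster, the median log2 fold change of the tested pairs was 0.32 in HoxA, 0.15 in HoxB and -0.18 in HoxC, against 0.02 over all tested pairs.

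The busiest pairs were those of HoxB with its neighbour on the Hoxb13 side. The anchor at chr11:96099925-96144484 spans the starts of Calcoco2, an autophagy receptor gene, and of Ttll6, a tubulin polyglutamylase gene, and lies 5.52 kb outside the interval. With the Gm53 anchor it had 61 and 71 counts in B6 and 73 and 74 in D2, the most of any Hox pair, with a log2 fold change of 0.09 (95% interval -0.39 to 0.57). With the Hoxb13 anchor it had 66 and 51 counts in B6 and 72 and 64 in D2 (0.15, -0.33 to 0.64). Raw counts were higher in both D2 libraries for the first pair and overlapped for the second, and neither difference exceeded the spread between libraries.

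With the anchor next to Hoxb13 the Calcoco2/Ttll6 anchor had 31 and 39 counts in B6 and 44 and 45 in D2. The Hoxb13 anchor and that neighbour, 9.78 kb apart, had 28, 30, 29 and 30 counts in B6 replicates 1 and 2 and D2 replicates 1 and 2, which is nearly the same in every library. The 2 anchors at Gm53 had 17 and 19 counts in B6 and 31 and 26 in D2 (log2 fold change 0.59, 95% interval -0.07 to 1.27), with no overlap and no call.

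Of the busiest HoxA pairs, 2 ended at Halr1. Halr1 with the anchor at chr6:52069316-52083872 had 12 and 22 counts in B6 and 31 and 20 in D2. Halr1 with the anchor 12427 bp from Skap2 had 14 and 13 counts in B6 and 21 and 15 in D2. Only the second of these was higher in D2 without overlap.

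In HoxC, apart from the pair with Atp5g2, the busiest pairs were within the cluster. The Hoxc12/Hoxc13 anchor had 19, 18, 15 and 19 counts with its neighbour 8215 bp from Hoxc13, and 18, 15, 19 and 16 with the Hotair anchor, in the same order of libraries. With the anchor near Hoxc4, 110 kb away, it had 16 and 14 counts in B6 and 9 and 14 in D2. Hoxc4 and its neighbour had 17, 15, 13 and 19 counts. None of these 4 pairs was called, though in scaled counts the strains did not overlap, with D2 lower, for the pair with the neighbour of Hoxc13 and for the pair with the anchor near Hoxc4.

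In HoxD the busiest pair had 14 counts. It joined the anchor past the Hoxd1 end to Mtx2, a gene of a mitochondrial import complex, 35.4 kb away, with 0 and 3 counts in B6 and 8 and 3 in D2. Hoxd3 with an anchor 350 kb away in the gene desert beyond Mtx2, chr2:75059168-75066357, had 2 and 3 counts in B6 and 1 and 2 in D2. At such counts a difference between strains was not detectable at this depth, and no HoxD pair was tested.

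Reach was measured as the median distance of a count, taken between anchor midpoints. It was 220 and 228 kb in B6 and 173 and 212 kb in D2 for HoxA. For HoxB it was 296 and 223 kb in B6 and 177 and 188 kb in D2, and for HoxC 239 and 215 kb against 241 and 225 kb. For HoxD it was 782 and 902 kb in B6 and 700 and 365 kb in D2. In HoxA, HoxB and HoxD both D2 libraries were below both B6 libraries, and in HoxC the strains overlapped.

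Over all pairs of the table the median distance was 120.4 and 119.5 kb in B6 and 104.9 and 110.2 kb in D2, so the whole D2 libraries were also shorter. The difference of the strain means, D2 minus B6, was -31.6 kb in HoxA, -77.2 kb in HoxB, 6.23 kb in HoxC and -309 kb in HoxD, against -12.4 kb over all pairs. With 2 libraries a strain, the smallest p of an exact permutation test is 0.33, and none was run. When pairs with a single count in a library were left out, the differences were -1.95 kb in HoxA, -13.1 kb in HoxB, 11.1 kb in HoxC and -480 kb in HoxD. Before that step a library held only 65 to 83 HoxD counts in 52 to 62 pairs, so the HoxD value rests on few counts. With 1 library left out at a time they ran from -51.4 to -11.7 kb in HoxA, -114 to -40.7 kb in HoxB, -5.64 to 18.1 kb in HoxC and -477 to -142 kb in HoxD. The HoxC difference was below 0 without B6 replicate 2 or without D2 replicate 1. The part of the shorter distances of the whole D2 libraries in these values was not tested.

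In every library the median distance of each Hox cluster was longer than that of the table as a whole. Counts beyond 500 kb were 35.4% of HoxA counts, 33.4% of HoxB, 17.9% of HoxC and 56.0% of HoxD, against 17.4% of all counts. In HoxC this share did not lie above that of the table in every library: it was 14.8% in B6 replicate 2, where all pairs had 17.8%. HoxC had 57.6% of its counts between 100 and 500 kb. HoxD had 0 counts under 20 kb, where its 4 anchors have no neighbours, and HoxB had 1.78% between 20 and 50 kb against 19.7% of all counts. The spacing of the anchors sets which distances can occur within a cluster. Past the Hoxc4 end of HoxC, the farthest 50 kb bin with counts was centred at 475 kb from the interval. On the higher-coordinate side it was at 1925 kb in HoxA, 1825 kb in HoxB and 1925 kb in HoxD. The HoxC share beyond 500 kb therefore had less room than the others.

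**Figure D4:**
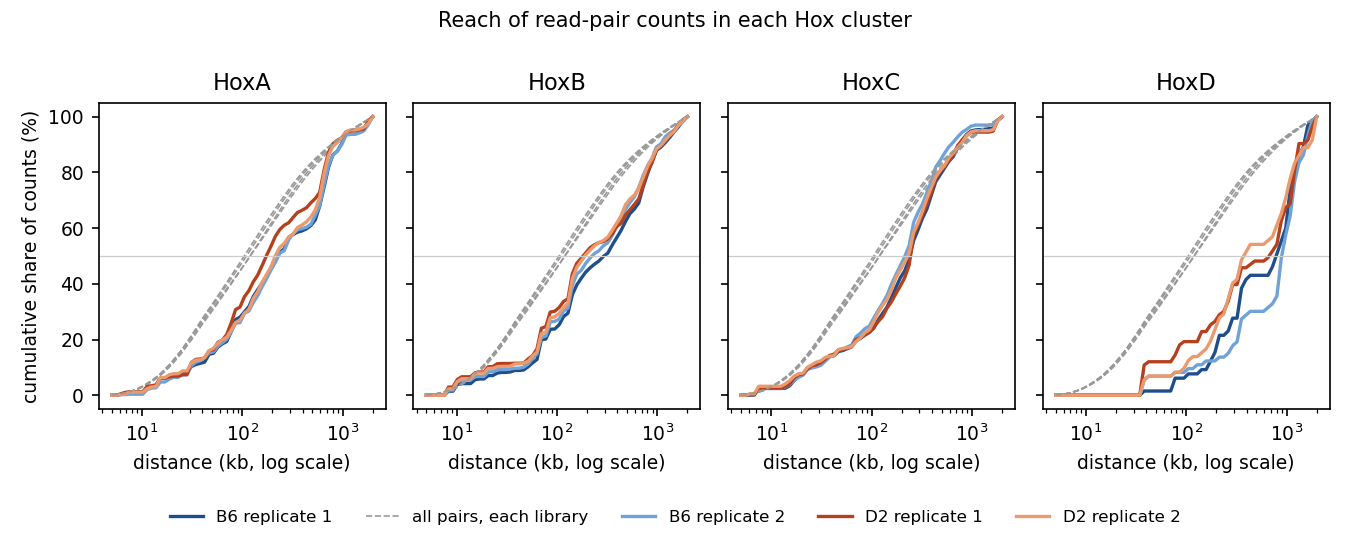
Cumulative share of counts (y axis, %) against distance between anchor midpoints (x axis, kb, log scale) for each Hox cluster, by library (coloured lines), with all pairs of each library (dashed grey). Every Hox curve crosses 50% to the right of the grey curves, HoxC at 215 to 241 kb and HoxD at 365 to 902 kb, and the HoxB curves climb in a step where the pairs with Calcoco2/Ttll6 lie.

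Most counts left the clusters. No such share is given here for other intervals of like size, and the median distance of a count over all pairs was 113 kb. Pairs with both anchors inside held 18.9% of the counts in HoxA, 16.2% in HoxB, 25.6% in HoxC and 3.75% in HoxD. The rest fell unequally on the 2 sides. HoxA counts went to lower coordinates for 62.7% and to the Hoxa13 side for 18.4%. HoxB counts went to the Hoxb13 side for 56.6% and the Hoxb1 side for 27.2%, HoxC counts to the Hoxc13 side for 43.7% and the Hoxc4 side for 30.7%, and HoxD counts to the Hoxd1 side for 57% and the Hoxd13 side for 39.2%. So more counts lay past the anterior end of the gene order in HoxA and HoxD and past the posterior end in HoxB and HoxC. In HoxC the sides had unequal room: 75 partner anchors lay on the Hoxc13 side and 22 on the Hoxc4 side. In bins of 50 kb, counts reached the bin centred at -1975 kb on the first side and 475 kb on the second. The HoxC shares are therefore no comparison over equal distances. The share on the side with more counts varied little between libraries. It ran from 60.5% to 63.6% in HoxA, 54.9% to 58.5% in HoxB, 41.9% to 47.6% in HoxC and 54.2% to 60.2% in HoxD.

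**Figure D5:**
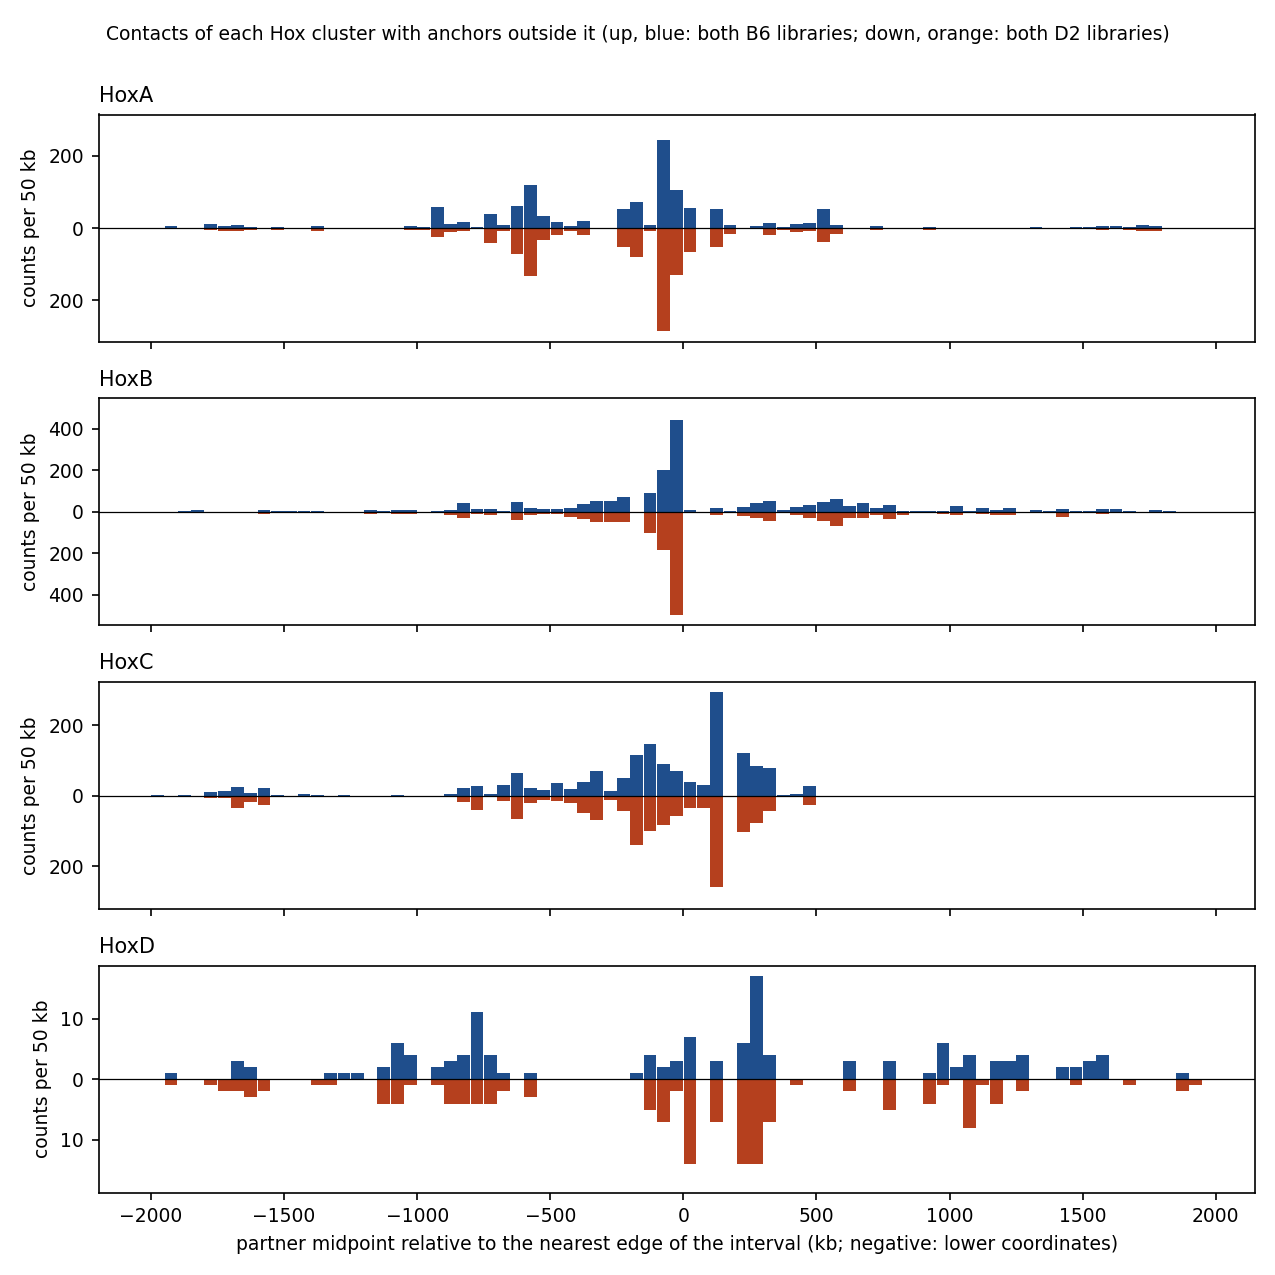
Counts of each Hox cluster with anchors outside it, in bins of 50 kb (y axis, both B6 libraries upward and both D2 libraries downward, scale differs by panel), against the distance in kb of the partner from the nearest edge of the interval. HoxB has 1 dominant partner next to its Hoxb13 edge, Calcoco2/Ttll6 with 25% of its outside counts, HoxA has peaks near its edge and at Snx10, 541 kb away, and HoxC counts are spread over many bins on both sides.

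The outside counts were more concentrated on the 5 leading partners in HoxA and HoxB than in HoxC and HoxD. The 5 leading partner anchors took 37.5% of the outside counts in HoxA, 37.7% in HoxB, 21.7% in HoxC and 24.1% in HoxD, among 110, 202, 97 and 81 partner anchors. The 20 leading partners took 71.0%, 58.1%, 59.0% and 59.9%. A coding start site lay under 12.7%, 30.7%, 38.1% and 21% of these anchors, against 21.4% of all anchors in the table. Of the 5 leading HoxA partners, 3 covered a coding start.

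The 3 nearest of the leading HoxA partners lie around Skap2, which encodes a cytoplasmic adaptor protein of immune cells. The anchor at chr6:52069316-52083872 had 42 and 64 counts with the cluster in B6 and 77 and 52 in D2, the one at chr6:52024976-52038901 had 56 and 51 against 66 and 56, and the one over the Skap2 start had 36 and 41 against 61 and 46. All 3 had at least 1 count with each of the 12 HoxA anchors. Only the anchor over the Skap2 start had both D2 libraries above both B6 libraries beyond a tie. Farther out, Snx10, a sorting nexin gene, had 44, 45, 43 and 49 counts in B6 replicates 1 and 2 and D2 replicates 1 and 2. The anchor over the starts of Cbx3, a heterochromatin protein gene, and Hnrnpa2b1, an RNA-binding protein gene, had 19, 26, 27 and 26. Both of these also had counts with all 12 HoxA anchors, but only 2 over the 4 libraries with the anchor at chr6:52289254-52293532.

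In HoxB, Calcoco2/Ttll6 had 205 and 218 counts with the cluster in B6 and 242 and 242 in D2, 907 in all and 25% of the outside counts. Most of them were with the busier Gm53 anchor (279) and with Hoxb13 (253), while Hoxb9 had 62, Hoxb7 20 and the last anchor beyond Hoxb1 5. The next partners had 147 counts (Atp5g1, another subunit c gene of the ATP synthase), 118 (an anchor 12697 bp from Calcoco2), 107 (an anchor near Snf8) and 88 (Sp2, a zinc finger transcription factor gene, 552 kb past the Hoxb1 side). At Atp5g1 the strains overlapped, with 45 and 31 counts in B6 and 31 and 40 in D2.

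In HoxC the leading partners were Smug1, a uracil DNA glycosylase gene, with 183 counts (40 and 55 in B6, 34 and 54 in D2) and a second anchor of Smug1 with 105, Atp5g2 with 165 (32 and 38 in B6, 57 and 38 in D2), an anchor over the start of the non-coding Gm49482 with 116, and Itga5 with 97 (32 and 28 in B6, 19 and 18 in D2). All had at least 1 count with each of the 15 HoxC anchors. Some of these were 1 count over the 4 libraries, as for Itga5 with the anchor at chr15:102865159-102867808. At Itga5 both D2 libraries were below both B6 libraries, and at Smug1 the strains overlapped. In HoxD the leading partner was Mtx2 with 21 counts (3 and 4 in B6, 10 and 4 in D2), and the next 4, with 16, 11, 10 and 10 counts, lay in the region without coding starts beyond it.

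The deposited files of the single libraries give a second value for each pair, taken as the q-value of the authors' loop caller. At q under 0.01 in every library, 49 of the 2641 Hox pairs remained, or 1.86%, against 3.31% of all pairs. They were 12 in HoxA, 18 in HoxB, 19 in HoxC and 0 in HoxD. In single libraries HoxA had 52 and 65 such pairs in B6 and 55 and 70 in D2, HoxB 119 and 89 against 93 and 88, HoxC 66 and 60 against 54 and 71, and HoxD 7 and 6 against 9 and 1. The strains overlapped in all 4 clusters.

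Of the 49 pairs, 1 lay within a cluster, that of the Hoxb13 anchor with its neighbour. All 19 in HoxC ended at the Hoxc12/Hoxc13 anchor. Of their 19 partners, 17 covered a coding start, a share that was not counted over all pairs at this q-value. Among them were Itgb7/Rarg (Rarg encodes a retinoic acid receptor; 11, 8, 11 and 6 counts, 685 kb away), Gm10337/Map3k12 (7, 13, 10 and 9 counts), Pcbp2 (6, 3, 7 and 5) and Zfp385a (9, 8, 7 and 8), in the order B6 replicates 1 and 2, D2 replicates 1 and 2. The longest joined Hoxc12/Hoxc13 to Acvr1b, an activin receptor gene 1759 kb away, with 6, 3, 7 and 10 counts.

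In HoxB 10 of the 17 outside pairs ended at the busier Gm53 anchor and 3 at Hoxb13, and in 13 of the 17 the partner covered a coding start. The 17 pairs had 10 partner anchors, 7 of them over a coding start. Kat7, a histone acetyltransferase gene, was 952 kb from Gm53, with 3, 5, 4 and 3 counts, and 892 kb from Hoxb13, with 5, 2, 6 and 3. In HoxA the 12 pairs had 5 partner anchors, 2 of them over a coding start. For HoxB and HoxA, too, such shares were not counted over all pairs at this q-value. Snx10 was the partner in 5 of the 12 pairs. The longest HoxA pair joined Hoxa10 to Cbx3/Hnrnpa2b1, 770 kb away, with 2, 3, 2 and 2 counts. Several of these pairs thus rest on 2 to 5 counts in a library.

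Contacts between Hox start sites of the same cluster were seen but were never among the pairs at q under 0.01 in every library. HoxA had 15 such pairs with 194 counts, HoxB 3 with 40, HoxC 6 with 83 and HoxD 0. Hoxc12/Hoxc13 with Hoxc4, 103 kb apart, had 10, 6, 5 and 7 counts, and Hoxb13 with Hoxb9, 79.2 kb apart, had 5, 5, 6 and 7. Of all possible pairs of anchors within a cluster, 63 of 66 had a count in HoxA, 34 of 36 in HoxB, 95 of 105 in HoxC and 4 of 6 in HoxD.

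Genes flanking the clusters were given as anchors of their own. Of the 24 flank genes with an anchor over a start site, Snx10 had 3149 counts over all its pairs, of which 181 went to HoxA. Calcoco2 and Ttll6 share an anchor with 4118 counts, of which 907 went to HoxB. Atp5g2 had 1593, of which 165 went to HoxC, and Mtx2 had 116, of which 21 went to HoxD. The Mtx2 anchor had 24 and 20 counts in B6 and 39 and 33 in D2, a log2 fold change of 0.74 with an adjusted p of 0.117 by edgeR with Benjamini-Hochberg adjustment. Flank genes without an anchor over a start site included Skap1, Snx11, Cbx1 and Nfe2l1 at HoxB and Cbx5, Hnrnpa1 and Nfe2 at HoxC.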

How the data were processed

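The authors deposited a series table of raw read-pair counts per pair of anchors for the 4 libraries, and single-library files with the same counts and a value from 0 to 1 read here as a q-value. HiC-Pro 2.11.4, DESeq2 and build mm10 are named, with no role, in the submitters' processing notes; the caller's settings and filters are not given in the sources used here. The table covers 19 autosomes with distances of 5 to 2000 kb. Total counts were 2767882 to 2944258 per library.

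An anchor's count was summed over its pairs, a cluster's over its pairs. Tests ran on the whole table with at least 20 counts over the libraries: edgeR 4.0.16 (limma 3.58.1, R 4.3.3), quasi-likelihood, TMM, strain as the only term, Benjamini-Hochberg over all features; DESeq2 1.42.0 was an alternative. Windows of 200 kb gave the background for clusters. The scripts were tested on simulated counts. CPM are counts scaled to a library total of 1000000. Non-overlap of strains among tested pairs and anchors was judged on scaled counts. Named pairs were the 5 with most counts per cluster and any called pair; named partners were the 5 with most counts; others were chosen after their values were seen. The intervals, gene lists and markers were chosen with earlier results of these data known. P-values compare 2 lines per strain. The spread they rest on was estimated mostly over all tested features together, and not from the libraries of each feature alone. PCR duplicates may remain among read pairs, so intervals cover only the spread the fit estimates. The values of 1 HoxA anchor and its pairs are not reported here, although they enter the cluster totals and counts.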

Additional observations from a re-analysis of the deposited data

How the results depend on the processing

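The counts of Hox pairs and Hox anchors called between strains were 0 in 12 of the 13 alternatives each: DESeq2, other normalizations, other minima and libraries left out. They were 1 pair and 2 anchors without D2 replicate 2, so that leaving out 1 library gave 0 to 1 pairs and 0 to 2 anchors. With a replicate block both counts were 0, with a smallest adjusted p of 0.0981 for pairs and 0.0889 for anchors by edgeR; the replicate numbers name separate lines, and their deviations correlated at -0.00203 over pairs and 0.00156 over anchors, so they do not pair the libraries.

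The cluster log2 fold changes changed sign, with no call, for HoxB at -0.00998 with totals within each chromosome and -0.0355 with pairs of at least 2 counts (-0.0441 to 0.145 with 1 library left out), and for HoxD at -0.0438 when an anchor's midpoint had to lie inside. The difference in reach, D2 minus B6, moved in HoxA to -1.95 kb for pairs with at least 2 counts in the library and -65.9 kb for pairs with 1 anchor outside, and in HoxB to -13.1 and -25.5 kb (-51.4 to -11.7 kb in HoxA, -114 to -40.7 kb in HoxB, -5.64 to 18.1 kb in HoxC and -477 to -142 kb in HoxD with 1 library left out). The causes were not tested.

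Uncalled pairs near 0 changed sign. Hoxb13 with its neighbour was 0.0236 without TMM and 0.0344 with no count minimum, and Hoxc4 with its neighbour 0.00807 with no minimum. With at least 50 counts, Hoxc12/Hoxc13 with Hotair was -0.0476. With 1 library left out, the ranges were -0.0464 to 0.22 and -0.00279 to 0.32 for Calcoco2/Ttll6 with Gm53 and with Hoxb13, -0.12 to 0.0279 for Hoxb13 with its neighbour, -0.15 to 0.17 for Hoxc12/Hoxc13 with Hotair, and -0.33 to 0.14 for Hoxc4 with its neighbour. Over the whole table, 531 pairs were called higher and 1034 lower in D2 with TMM, and 685 and 861 without it. With 2 lines per strain and 95 testable pairs, small differences at single Hox pairs, and any at HoxD pairs, are beyond this depth.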
